A study of Mus musculus with 40 samples.

Results

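The 40 interferon-stimulated genes are a list of genes known to be switched on by interferons, out of 29411 gene symbols on the array. They were picked by symbol and not by a rule on their values, though earlier results of these data were known. Each was read from 1 probe, the brightest on average over the 38 arrays whose labels name a diet. By role they were sorted into 4 cytosolic sensors of foreign nucleic acid, 4 transcription factors, 14 antiviral effectors, 4 genes of the ubiquitin-like system, 6 interferon-inducible GTPases, 3 genes of antigen processing and 5 other induced genes. Interferons bind receptors on the cell surface, and Janus kinases then activate STAT proteins that move to the nucleus. A complex that holds STAT2 and IRF9 acts at the interferon-stimulated response element, while interferon gamma signals through the gamma-activated site. Immune cells and stromal cells of adipose tissue can both express these genes. The role given below for a gene is the one known for its protein. Only RNA was measured, and whether a protein works in the strain used was not.

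Single-colour Agilent arrays measured total RNA of subcutaneous stromal vascular cells (SVCs) of C57BL/6J mice that had been weaned at 3 to 4 weeks of age. The low-fat control diet (LFC) had 10% of its calories from fat, the high-fat, high-sucrose diet (HFC) had 60%, and HF5, HF20 and HF75 were HFC with 5, 20 or 75 µg of the botanical formulation Kal-1. LFC and HFC had 11 arrays each, labelled days 1, 6, 10 and 14 and weeks 0, 3, 6, 9, 12, 15 and 18. HF5 had 6 arrays from week 3 to week 18, and HF20 and HF75 had 5 each from week 3 to week 15. There was 1 array per diet and time label. The titles of both day 6 arrays start with another prefix than all the rest, and those of the week 9 arrays except HF75 carry the letters WS, neither of which the labels explain. The series text speaks of 3 biological replicates, while the labels do not state how many mice an array held. What an array stands for is therefore open, and p-values measure only the spread between these arrays, which may be technical. A further 2 arrays of week 18 carry labels that name different diets, and they went into no comparison. Levels are log2 intensities minus the 75th percentile of their own array, so that a level of 0 is the brightness of the probe at that percentile and a difference of 1 is a doubling.

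The LFC arrays of week 3 and day 14 were left out of every comparison below. On that of week 3 the 75th percentile intensity was 7.86 and 17.2% of probes were well above background, and on that of day 14 there were 9104 outlier spots. This left 36 arrays, 9 of them LFC. On these 36 the median spot was 2.09 to 10.8 times as bright as background, and on the left-out arrays it was 1.53 and 55.4 times as bright. The array labelled LFC week 18 stood apart in its cell markers. Its fibroblast list (5 genes) had a mean level of −4.91 against 4.52 to 5.83 on the other LFC arrays, with Dcn at −5.55 and Pdgfra not well above background. Its neutrophil list (5 genes) was at 5.63 against at most 1.07, and the red cell genes Alas2 and Slc4a1 were at 6.50 and 6.74. The medians over the members between LFC and HFC, between the periods of LFC and in the interaction are given with and without it. Of 6 measured macrophage markers, all were well above background on at least 34 of 36 arrays, and Emr1, with the brightest probe, had a median level of 1.97. Fibroblast and adipocyte markers were well above background on at least 34 of 36 arrays too, beside those of macrophages.

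Nearly all of the members were readily measured. Of the 40, 33 were well above background on all 36 arrays and 39 on at least 30. Of the members, 24 have 1 probe, and among the 16 with more, a second probe had a low r with the probe used for Oas2 (0.10), Iigp1 (0.15) and Ifih1 (0.17). Oas1g, a 2′-5′-oligoadenylate synthetase that starts RNA decay, was well above background on 3 arrays and was not tested. It is counted among the 40 members and the 14 effectors below, but its differences are mostly those between the lowest measurable levels of the arrays. Over the 36 arrays the median of the members on an array ran from −0.62 on HFC day 1 to 2.28 on LFC day 1. The lowest, median and highest array was −0.15, 1.01 and 2.28 in LFC, and −0.62, 1.32 and 1.87 in HFC. In HF5 it was 0.21, 0.74 and 1.97. The HF20 arrays were at 1.59, −0.33, 1.03, 0.14 and 0.33 from week 3 to week 15. The HF75 arrays were at 1.77, 0.47, 0.64, 0.83 and 0.66. The ranges of all 5 diets overlap. The diet means lie between 0.55 for HF20 and 1.13 for HFC, and the SD within a diet runs from 0.51 in HF75 to 0.85 in LFC.

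Of the 4 cytosolic sensors, Ifih1 (MDA5, which binds long double-stranded RNA) ran from −4.92 on LFC day 1 to 1.56 on LFC week 15, with a median of 0.43. Dhx58 (LGP2, a regulator of the other RIG-I-like receptors) was lowest on the same array, where it was not well above background, and highest on LFC day 6 at 0.93. Ddx58 (RIG-I, which binds RNA with a 5′ triphosphate) ran from −2.24 on HF20 week 6 to 1.92 on HF75 week 3. Zbp1, which binds Z-form nucleic acid, was instead highest on LFC day 1, at 3.56, and lowest on HFC day 1, at −4.03. Across the 36 arrays the sensors had a median pairwise Pearson r of 0.12. With the median of the other members Zbp1 had r = 0.78, Ddx58 0.58, Ifih1 −0.03 and Dhx58 −0.08. For Ifih1 and Dhx58, which were lowest on the array where the member median was highest, the rank correlation rho was 0.26 and 0.29.

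Among the transcription factors, Stat2 and Irf9 form the DNA-binding complex named above, Irf7 drives interferon genes and Irf1 acts downstream of interferon gamma. Stat2, Irf9 and Irf7 were all highest on LFC day 1, at 2.42, 1.998 and 1.43. Irf1 ran from 3.19 on HFC day 1 to 6.56 on HFC day 10. The lowest Irf7 level was −2.65, on HF75 week 6, and those of Stat2 and Irf9 were −0.11 and −0.18, both on LFC week 12. Their median pairwise r was 0.51.

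The 14 antiviral effectors act on viral RNA, proteins or budding. Ifit1, Ifit2 and Ifit3 bind foreign RNA or its translation complexes, and their lowest and highest levels were −1.95 and 2.84, −3.26 and 0.34, and −2.40 and 3.37. Mx1, a dynamin-like GTPase of the nucleus, ran from −5.80 on LFC week 12 to 1.74 on HF75 week 3, and its cytoplasmic relative Mx2 from −3.02 on LFC week 18 to 2.35 on HFC day 10. Rsad2 (viperin) was highest on LFC week 18, at 3.46, on which Mx2, Ifit3 and Ifi44 were lowest. Oasl1, a regulator of Irf7 translation, ran from −3.39 on HFC day 1 to 2.88 on HF5 week 15. Bst2 (tetherin, which holds budding virus at the membrane) ran from 1.62 on HFC day 1 to 6.00 on LFC day 6. Eif2ak2 (PKR, a kinase that stops translation) followed the others least among those tested, with r = 0.22 to the median of the other members, while Ifit2 had 0.84 and Oas1a 0.83.

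Isg15, a ubiquitin-like protein that is attached to other proteins, was at 3.38, 1.46, 2.83, 2.64, 1.78, −0.82, −0.86, 2.21 and 3.01 on the 9 LFC arrays in time order. Its lowest, median and highest HFC levels were −0.996, 2.11 and 3.04, and in HF5 they were −0.53, 1.29 and 3.62. The HF20 arrays held 2.40, −0.13, −0.20, −0.34 and −0.39, and the HF75 arrays 1.80, 0.81, 0.89, 1.28 and 0.78. Every diet thus overlapped with the others, and in HF20 week 3 alone stood above 0. Usp18, the protease that removes Isg15, was highest on LFC day 1 at 3.14 and lowest on HF20 week 6 at −1.15. Trim25, the ligase that activates RIG-I, had the narrowest range of the 40 members, 2.15. Ubd (FAT10, a ubiquitin-like tag for the proteasome) had the widest as measured, 8.82, from −4.90 on HFC day 1 to 3.92 on HF75 week 3. The range of Dhx58, 8.07, is a lower bound, since its lowest level was not well above background.

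The GTPases Igtp, Irgm1, Iigp1, Ifi47, Gbp2 and Gbp3 act at the vacuoles of intracellular pathogens and are known targets of interferon gamma. Their median pairwise r across the 36 arrays was 0.74, and that of the effectors was 0.55. The array of HF20 week 9 held the highest level of 4 of them, Igtp at 5.43, Iigp1 at 5.44, Gbp2 at 3.68 and Irgm1 at 2.66. It was singled out after its values were seen.

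Psmb8 and Psmb9, catalytic subunits of the immunoproteasome, and Tap1, which carries peptides into the endoplasmic reticulum, had the highest median pairwise r of the groups, 0.88. Psmb8 ran from 1.51 on HFC day 1 to 5.70 on LFC day 1. Psmb9 ran from 0.82 on HFC day 1 to 4.75 on HF20 week 9, and Tap1 from 1.11 on HFC day 1 to 5.90 on LFC day 10. Of the other induced genes, the apoptosis factor Xaf1 followed the rest most closely (r = 0.84) and the mono-ADP-ribosylation partner Parp9 least (0.23). Parp14, an ADP-ribosyltransferase, ran from 1.60 to 3.87, Ifi35 from 0.14 to 2.55 and Ifi44 from −4.24 on LFC week 18 to 1.67 on HF75 week 12.

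Over the 741 pairs of the 39 members other than Oas1g, the median r across the 36 arrays was 0.51, from −0.31 for Ifih1 with Irf9 to 0.92 for Psmb8 with Psmb9. All 40 members were found in the GRCm38.p6 annotation, and 20 of them lie in 8 groups of neighbours with at most 20 genes between them. The 14 pairs of neighbours without Oas1g had a median r of 0.73 (0.53 to 0.92), and the other 727 pairs 0.51. On chromosome 17 Psmb9, Tap1 and Psmb8 had 0.88, on chromosome 11 Irgm1 and Ifi47 0.86, and on chromosome 3 Gbp3 and Gbp2 0.78. Mx1 and Mx2 on chromosome 16 had 0.67, as had Oasl2 and Oasl1 on chromosome 5. The arrays share a platform and many share a scan day, so these values are descriptions only.

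Outside the list, 20191 genes were compared with the median of the members across the 36 arrays. The most alike by r was Cxcl11, a chemokine that draws T cells (r = 0.90, rho = 0.89, and r = 0.89 without the 2 farthest arrays). By r it was followed by Phf11 (r = 0.89), D14Ertd668e (0.88), the Isg15 ligase family gene Herc5 (0.87), Tnfaip8l1 (0.84), BC057170 (0.83), and the GTPase gene Gbp5, Rnf213, Apol9a and Gm9640 (0.81 each). By rho, Phf11 (0.93) and D14Ertd668e (0.90) were above Cxcl11. They were also above it in r without the 2 farthest arrays (0.8929 and 0.8905 against 0.8866).

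The promoters of the members were searched in RefSeq sequence of GRCm38.p6, from 250 bases before to 50 bases after the start of the gene. A sequence was found for 31 of the 40, without Dhx58, Zbp1, Mx1, Mx2, Oas2, Usp18, Iigp1, Parp9 and Parp14. The letters GAAA, any 2 bases and GAAA again (TTTC, any 2 bases and TTTC on the other strand), which resemble the interferon-stimulated response element, were in 16 of 31 members (51.6%) and in 1079 of 27025 promoters of all genes (3.99%). The letters TTCNNNGAA, which resemble the gamma-activated site and read the same on both strands, were in 8 of 31 (25.8%) and in 9.55% of all promoters. Both were in 4 members and neither in 11. The 25 matches of the first kind began at a median of 59 bases before the start, from 222 before to 32 after it. A match describes the letters only. The windows below belong to members from different roles, read along the strand of the gene, with the matched letters in capitals.
Isg15, chr4:156200873-156200898, minus strand: aggaaaagGAAACCGAAAcagaaaat
Ifit1, chr19:34640796-34640821, plus strand: agtctcagTTTCAGTTTCtcactgct
Oas1a, chr5:120907522-120907547, minus strand: gggaaatgGAAACTGAAAatctactt
Rsad2, chr12:26456555-26456580, minus strand: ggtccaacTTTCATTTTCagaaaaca
Ifih1, chr2:62646206-62646231, minus strand: agagaatcGAAACAGAAAccgatctg
Irgm1, chr11:48871427-48871452, minus strand: aagaaataGAAACCGAAActgattct
Gbp2, chr3:142620596-142620621, plus strand: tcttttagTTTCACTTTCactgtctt
Igtp, chr11:58199514-58199539, plus strand: taggaactGAAACTGAAAgctgttcg

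For the second motif, the windows of Irf1, which carries no match to the first, of Psmb8 and of Igtp are shown, again along the strand of the gene in GRCm38.p6 with the 9 matched letters in capitals. The Igtp window overlaps the Igtp window shown for the first motif.
Irf1, chr11:53769916-53769940, plus strand: agcctgatTTCCCCGAAatgatgag
Psmb8, chr17:34198090-34198114, plus strand: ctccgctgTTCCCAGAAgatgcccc
Igtp, chr11:58199503-58199527, plus strand: ctagccatTTCTAGGAActgaaact

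HFC was compared with LFC to ask whether the high-fat diet shifts these genes, with the time label as a block. In the main fit the members differed little, and without a common direction over time. Their median log2 difference was 0.10, against 0.06 over all genes tested, with 26 members above 0 and 14 below. The medians by role were 0.35 for the sensors, 0.17 for the transcription factors, 0.11 for the effectors, 0.01 for the ubiquitin-like system, 0.13 for the GTPases, −0.24 for antigen processing and 0.13 for the other genes. By limma 0 of 39 members tested passed a Benjamini-Hochberg adjusted p under 0.05, as did 0% of the 22559 genes (0 genes). At an unadjusted p under 0.05 there was 1 member, Ifih1, against 5.63% of all genes. Ifih1 had a lowest, median and highest level of −1.62, 0.65 and 1.06 in HFC and of −4.92, 0.18 and 1.56 in LFC. The groups overlap, and the lowest LFC arrays were days 1 and 10, at −4.92 and −4.23. HFC was higher in 7 of 9 pairs of arrays of the same time label (log2 difference 1.03, SE 0.39, limma p = 0.0134, adjusted p = 0.806). The second probe of Ifih1, well above background on 34 arrays, gave a mean pair difference of 0.04, with HFC higher in 5 of 9 pairs. Ubd was the largest difference (1.15, SE 0.70, 4 of 7 pairs), then came Ifih1 and Mx2 (0.89, SE 0.63, 6 of 9 pairs). In the other direction the largest were Oas3 (−0.82, SE 0.63), Tap1 (−0.26, SE 0.38) and Irf7 (−0.24, SE 0.40), with adjusted p of 0.821, 0.902 and 0.914. Tap1 was nonetheless higher in HFC in 6 of 9 pairs and Irf7 in 5 of 9, and both differences were 0.20 without the day 1 arrays. With the scan day as the block they were 0.16 and 0.21. With a normexp background correction Ifih1 was at 0.32, and without LFC day 10 it was at 0.58. Without the array labelled LFC week 18 Ubd was at 0.44 and Mx2 at 0.48. Without LFC day 1 Oas3 was at −0.30, and with the mean of its probes at −0.27, and its second probe had a mean pair difference of 0.20.

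The pairs of single time labels went both ways. At day 1, 35 of 38 members were lower in HFC, with a median difference of −2.998. At day 6 the median was 0.84, with 32 of 40 higher. It was 0.24 at day 10 and −0.33 at week 0, then 0.32, 0.24 and 1.04 at weeks 6, 9 and 12. At week 15 it was −0.48 and at week 18 it was 1.04, so 6 of 9 were above 0, with an SD of 1.25 over the pairs. These single pairs have no replicate. Without the day 1 arrays the median over the members was 0.44 (38 of 40 above 0), and with the scan day as the block in place of the time label it was 0.49. The pair of day 1 is also the only one of the 9 scanned on different days. Without the array labelled LFC week 18 the median was 0.00, and 0 members passed in any of these fits. At day 1 the lymph node list (6 genes measured of 8, Ccl19 brightest) was at 2.93 in LFC and −4.55 in HFC. The natural killer and cytotoxic list (6 of 6, Gzma brightest) was at −1.23 and −5.18. In such bulk samples fewer cells of a type and less RNA per cell cannot be told apart.

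**Figure D1:**
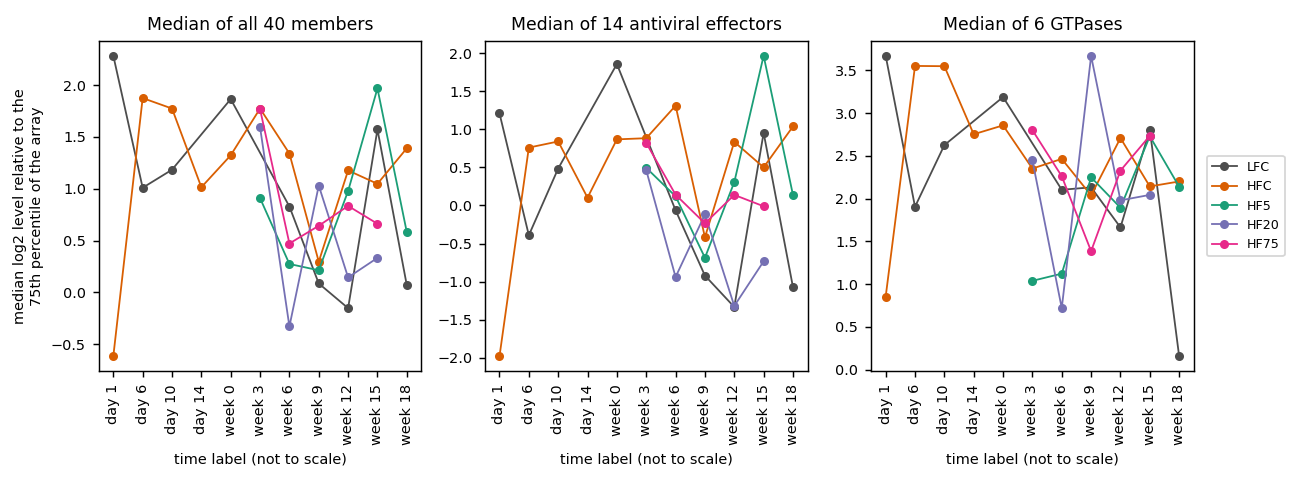
Median log2 level (vertical) of all 40 members, of the 14 antiviral effectors and of the 6 GTPases on each array, by time label (horizontal, evenly spaced and not to scale), with 1 line per diet and 1 array per point. LFC runs from 2.28 at day 1 to −0.15 at week 12 and back to 1.57 at week 15, and the GTPase median of HF20 reaches 3.67 at week 9.

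The 3 doses of Kal-1 were each compared with HFC, to ask whether the formulation shifts the members on the same diet. All of these comparisons use the same HFC arrays, as does the comparison with LFC, so their values are not independent of each other. All diets share 1 fit, so a value of the fit also draws on LFC and can differ from the mean over the pairs. With 5 µg the median over the members was −0.09, against −0.01 over all genes, with 16 above 0 and 24 below. The 4 sensors and the 6 GTPases were all below 0, with medians of −0.55 and −0.14, and the effectors had a median of 0.01. No member (0 of 39) passed limma's test, as did 0% of 22559 genes, and at an unadjusted p under 0.05 there were 0 members against 2.77% of all genes. Trim25 had a lowest, median and highest level of 1.999, 2.64 and 3.36 in HF5 and of 1.505, 2.47 and 2.94 in HFC. HF5 was higher in 5 of 6 pairs within overlapping ranges (log2 difference 0.46, SE 0.26, adjusted p = 1), while its second probe was higher in 3 of 6 pairs (mean pair difference −0.17). Mx1 differed by 1.101 (SE 0.93, 3 of 6 pairs higher) and Oas3 by 0.35 (SE 0.75), or by −0.18 with the mean of its probes. Without HF5 week 12 Mx1 was at 0.56, and with the mean of its probes at 0.45. Oas3 was at −0.22 without HF5 week 15 and at 1.15 without HF5 week 18. Lower in HF5 were Dhx58 (−0.96, SE 0.66), Ifih1 (−0.89, SE 0.46, lower in 5 of 6 pairs, mean pair difference −0.52, and −0.30 without the block) and Ifi44 (−0.87, SE 0.69, or −0.35 without HF5 week 3). The Dhx58 value rests on HF5 week 18, at −3.76, and was −0.36 without the week 18 arrays. By time the pair medians were −0.79, −0.70, 0.09, 0.10, 0.78 and −0.82 from week 3 to week 18, with 3 of 6 above 0. Without the week 18 arrays the median over the members was 0.06, with 24 above 0. It was −0.29 with only the 2 diets in the fit and −0.20 with the scan day as the block. Without the day 1 arrays it was −0.21. In each of these fits 6 were above 0. Without the block it was −0.30, with 8 above 0. The natural killer and cytotoxic list was at −2.07, −3.05, −4.08, −2.81, −3.33 and −4.15 in HF5 from week 3 to week 18. In HFC it was at −0.38, −1.19, −4.33, −2.90, −2.53 and −2.24. Its part in the differences was not tested.

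With 20 µg the members lay lower than HFC on balance, with a median of −0.32 against 0.05 over all genes and 30 of 40 below 0. The 4 sensors (median −0.57), the 4 genes of the ubiquitin-like system (−0.56) and 12 of the 14 effectors (−0.34) were below 0, while the 3 genes of antigen processing were above it (0.07). Limma's test was passed by 0 of 39 members and by 0% of all genes. The members with an unadjusted p under 0.05 were 2, Oasl1 and Rsad2, against 5.39% of all genes. Oasl1 was at 0.34, −0.28, −1.95, −2.07 and −2.45 in HF20 from week 3 to week 15, and at −3.39, 0.91 and 2.11 (lowest, median, highest) in HFC. The last 3 HF20 arrays are low, the diets overlap, and HF20 was lower than the HFC array of its week in 5 of 5 pairs. The log2 difference was −1.87 (SE 0.79, limma p = 0.0269, adjusted p = 0.748). Rsad2 was at 0.23, −1.46, −0.03, −1.52 and −0.76 in HF20 and at 0.02, 1.19 and 2.21 in HFC. Of the HF20 arrays only week 3 lies within the HFC range (log2 difference −1.38, SE 0.62, p = 0.036, adjusted p = 0.748, lower in 4 of 5 pairs). Mx2 was at 1.64, −0.90, −0.27, −1.66 and −1.75 and differed by −1.41 (SE 0.80), or by −0.92 without HF20 week 15. On the other side Eif2ak2 differed by 0.30 (SE 0.35), Psmb9 by 0.18 (SE 0.43) and Iigp1 by 0.15 (SE 0.77), and these turned to −0.09 without the block, −0.14 without the week 9 arrays and −0.34 with the scan day as the block.

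By week the pair medians of HF20 and HFC were −0.21, −1.39, 0.84, −0.83 and −0.52, so 1 of 5 was above 0. Week 6 had 38 members lower and week 9 had 36 higher. Without the week 9 arrays the median over the members was −0.65, and without HF20 week 6 it was −0.14. With a normexp background correction it was −0.30, against −0.185 over all genes, so the members then lay closer to other genes. On the HF20 arrays of weeks 9, 12 and 15 the adipocyte list (6 of 6 genes, Cidec brightest) was at 5.23, 5.65 and 5.26, against 4.89, 1.74 and −0.11 in HFC. The lymph node list was at −3.14, −3.67 and −4.15 against −3.37, −1.18 and 2.20. The natural killer and cytotoxic list was at −1.78, −3.51, −3.12, −4.71 and −4.00 in HF20 from week 3 to week 15 and at −0.38, −1.19, −4.33, −2.90 and −2.53 in HFC, so that week 9 alone was higher in HF20 for it too. Their part in the differences of the members was not tested.

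With 75 µg the members were spread evenly around 0 in the main fit, with a median of 0.05 against 0.00 over all genes and 21 above 0 against 19 below. The role medians lay between −0.27 for the sensors and 0.22 for antigen processing. In limma's test 0 of 39 members passed, as did 0% of all genes, and without the time label as a block 0 members and 36 of 22559 genes passed. With quantile normalization 0 members and 86 of 22559 genes passed, and without the week 18 arrays 0 members and 3 of 22773 genes. Before adjustment 2 members, Mx1 and Ifih1, had a p under 0.05, against 10.7% of all genes. Mx1 was at 1.74, −0.90, −1.20, 1.15 and 0.09 in HF75 from week 3 to week 15. In HFC its lowest, median and highest levels were −5.63, −3.03 and 0.01. The HF75 arrays are high, the ranges overlap through HFC weeks 3 and 18, and HF75 was above the HFC array of its week in 5 of 5 pairs. The difference between the arrays of a pair was 2.98 ± 0.61 (SD, from 2.13 to 3.58). In the fit it was 3.29 (SE 1.00, 9.81-fold, limma p = 0.00298, adjusted p = 0.198). With only HF75 and HFC in the fit it passed at an adjusted p of 0.0127, among 226 of 21036 genes, and over all alternatives the adjusted p ran from 0.0127 to 0.919. The second probe of Mx1 was well above background on 14 of 36 arrays and had r = 0.52 with the first. It gave a mean pair difference of −0.72, from levels not raised to the lowest measurable level of their array. On HF75 week 6 it was at −7.67, where that lowest level was −6.69. The mean of both probes, with dim values raised, gave 1.64.

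Ifih1 was at 0.29, −0.20, −0.30, 0.13 and 0.55 in HF75 and at −1.62, 0.65 and 1.06 in HFC. It lay within the HFC range, whose low end was day 1. From week 3 to week 15 HFC was at 0.47, 0.65, 0.83, 0.98 and 0.81, and of the HF75 arrays only week 15 reached these levels. HF75 was below the HFC array of the week in 5 of 5 pairs, with a mean pair difference of −0.65 ± 0.41 (SD). In the fit, which also draws on the LFC arrays, Ifih1 differed by −1.16 (SE 0.49, limma p = 0.0276, adjusted p = 0.371). Without LFC day 10 this was −0.96, and without the time label as a block it was −0.37. Irf7 was at 0.01, −2.65, −1.01, −1.87 and −2.26 in HF75 and differed by −0.97 (SE 0.52, lower in 4 of 5 pairs). Oasl1 differed by −0.98 (SE 0.79), Ifi44 by 0.58 (SE 0.74) and Zbp1 by 0.48 (SE 0.88). Oasl1 was at −0.58 without HFC week 12, Ifi44 at 0.29 without HF75 week 12 and Zbp1 at 0.09 without HF75 week 9. The other 2 probes of Zbp1 had mean pair differences of −0.08 and −0.53. The pair medians were −0.04, −0.64, 0.33, −0.17 and 0.00 from week 3 to week 15, with an SD of 0.352, and without the week 9 arrays the median over the members was −0.06. The natural killer and cytotoxic list was at −1.30, −4.47, −1.875, −2.61 and −4.86 in HF75 from week 3 to week 15. In HFC it was at −0.38, −1.19, −4.33, −2.90 and −2.53. At week 9 the lymph node list was at 2.14 in HF75 and −3.37 in HFC, and at week 6 at −2.42 and −1.13. Their part in the differences was not tested. Only the HF75 arrays of weeks 12 and 15 shared a scan day with their HFC array. With the scan day as the block the median over the members was −0.24, Zbp1 was at −0.48, Oasl1 was at −2.23, and Mx1 was at 2.75. That fit had 10 members above 0, and without the time label as a block there were 13. With only the 2 diets in the fit there were 15, and without the day 6 arrays 23.

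**Figure D2:**
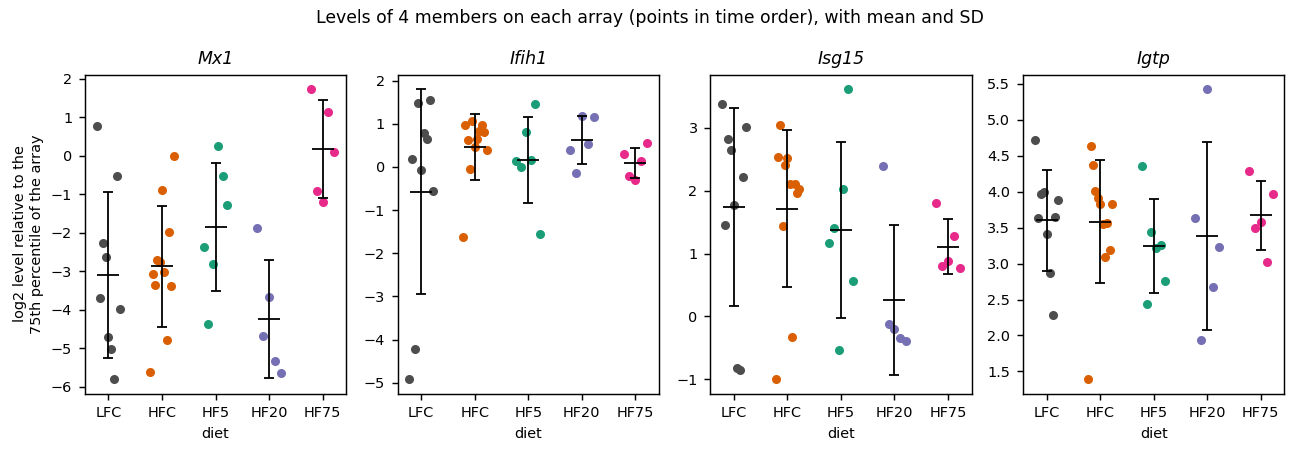
Log2 level (vertical) of Mx1, Ifih1, Isg15 and Igtp on each array by diet (horizontal), with points in time order within a diet and the mean and SD beside them. The 5 Mx1 points of HF75 lie between −1.20 and 1.74, while the HFC points reach from −5.63 to 0.01.

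Weeks 3 to 18 were compared with day 1 to week 0 within LFC and within HFC, and the difference between the diets was tested as an interaction. In LFC the late arrays lay lower for nearly all members. The median was −0.96 against −0.06 over all genes, with 37 of 40 members below 0. The 13 effectors other than Oas1g, the 6 GTPases, the 4 transcription factors, the 4 genes of the ubiquitin-like system and the 3 of antigen processing were all below 0. The role medians were −1.35 for the 14 effectors, −1.03 for the GTPases, −0.83 for the transcription factors, −1.20 for the ubiquitin-like system, −1.10 for antigen processing and −0.90 for the other induced genes, while the sensors were at 0.15. The sensor value rests on LFC day 1. Without the day 1 arrays 2 members were above 0, Ifih1 (1.32) and Parp9 (1.30), and Dhx58 was at −1.07. The sensor median was then below 0 too. By limma 0 of 39 members passed, as did 0% of the 20901 genes. At an unadjusted p under 0.05 there were 14 members, 13 of them lower, against 8.13% of all genes. Bst2 was at 4.96, 6.00, 4.86 and 4.63 on the early LFC arrays and at 3.74, 3.20, 2.19, 3.80 and 2.18 on the late arrays. The periods do not overlap (log2 difference −2.09, SE 0.62, limma p = 0.00302, adjusted p = 0.465). Zbp1 was at 3.56, 1.68, 2.14 and 1.01 early and at 0.60, −1.61, −1.19, −0.30 and 0.74 late, again with no overlap (−2.45, SE 1.05, p = 0.0302, adjusted p = 0.559). Mx1 was at 0.78, −3.69, −2.26 and −2.62 early and at −4.71, −5.03, −5.80, −0.53 and −3.99 late, where week 15 lies among the early arrays (−2.06, SE 1.097). Without LFC day 1 the Mx1 difference was −1.15, and without LFC week 15 it was −2.94.

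Further members with an unadjusted p under 0.05 in LFC were Irf7 (−1.71), Irf9 (−0.85), Ifit2 (−1.32), Oas1a (−1.38), Oasl2 (−1.52), Eif2ak2 (−0.71), Usp18 (−1.66), Trim25 (−0.90), Psmb8 (−1.35), Ifi35 (−1.13) and Xaf1 (−1.63). Their smallest adjusted p was 0.463. Ifih1 went the other way with the probe used, but its second probe was lower late by a log2 difference of −0.32. With the probe used it was at −4.92, 0.18, −4.23 and 1.48 early and at −0.08, 0.78, 0.64, 1.56 and −0.57 late, with overlap, and differed by 2.34 (SE 0.97) or, without the day 1 arrays, by 1.32. Parp9 differed by 0.90 (SE 0.54), or by 0.24 without LFC day 10, where it was lowest at −2.61. Dhx58 differed by 0.83 (SE 1.09) and by −1.07 without the day 1 arrays. Without the array labelled LFC week 18 the median over the members was −1.03, and without the day 6 arrays it was −1.36. With a normexp background correction 6 members passed, among 7264 of 20901 genes, and the median was −0.61 over the members and −0.60 over all genes, so the members then lay no lower than other genes. Along with the members, the lymph node list was at 2.93, 1.19, 2.76 and 1.40 on the early LFC arrays and at −1.45, −4.60, −5.27, −1.63 and −4.26 on the late arrays. The natural killer and cytotoxic list was between −2.39 and −1.23 early and between −6.04 and −2.59 late. Their part in the lower levels was not tested.

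In HFC the members did not share a direction between the periods, with a median of 0.07 against −0.18 over all genes and 25 above 0. Of 39 members 0 passed limma's test, as did 0% of 20901 genes. Unadjusted, 2 members had a p under 0.05, Oas2 and Eif2ak2, against 7.61% of all genes. Eif2ak2 was at −0.44, 1.09, 0.41, −0.37 and −0.06 on the early arrays, and its lowest, median and highest late levels were −1.18, −0.98 and −0.20. The late arrays are low with overlap (log2 difference −0.96, SE 0.30, limma p = 0.00501, adjusted p = 0.451). Oas2 differed by 1.24 (SE 0.57, p = 0.0425, adjusted p = 0.633), by 0.69 without HFC day 1 and by −0.15 with the mean of its probes. Ubd differed by 1.67 (SE 1.23) and by 0.32 without HFC day 1, and Oasl1 by 1.30 (SE 0.92) and by 0.54. Iigp1 (−0.64, SE 0.87) and Gbp3 (−0.45, SE 0.51) were lower, with −0.35 without HFC day 10 for Iigp1 and −0.15 without HFC day 6 for Gbp3. Without HFC day 1 they were at −1.28 and −0.93. Without HFC day 1 the median over the members was −0.31.

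The test of the difference between the diets gave a median of 1.20 over the members against −0.15 over all genes, with 35 of 40 above 0, so the step from early to late was higher in HFC for most of them. The role medians were 1.68 for the ubiquitin-like system, 1.59 for antigen processing, 1.55 for the effectors, 1.03 for the transcription factors, 0.83 for the GTPases and 0.07 for the sensors. The sensor value lies midway between Dhx58 (−0.80) and Ddx58 (0.94). Dhx58 was at 1.17 without the day 1 arrays, so the low sensor value depends on them. By limma 0 of 39 members passed, as did 0% of 20901 genes. At an unadjusted p under 0.05 there were 8 members, all higher, against 5.49% of all genes. These were Mx1 (3.23, SE 1.48), Zbp1 (2.99, SE 1.41), Oas2 (1.94), Oas1a (1.88), Bst2 (1.80), Usp18 (1.80), Psmb8 (1.74) and Ifi35 (1.22), with a smallest adjusted p of 0.833. Oasl1 was at 2.77 (SE 1.37). Ifih1 (−1.84, SE 1.31), Parp9 (−0.99, SE 0.73) and Dhx58 (−0.80, SE 1.47) were lower, and Dhx58 was at 1.17 without the day 1 arrays. Without the day 1 arrays Mx1 was at 1.79, Zbp1 at 1.35 and Oasl1 at 1.88. Ifih1 was at −0.83 without LFC day 1, and Parp9 at −0.34 without LFC day 10. With their second probes Ifih1 was at 0.48 and Oas2 at −0.51. The second Oas2 probe was well above background on 18 of 36 arrays, and its dim values were not raised. The median over the members was 0.77 without HFC day 1, 0.63 without both arrays of day 1, 1.68 without those of day 6 and 1.13 without the array labelled LFC week 18. With normexp 2 members passed, among 6061 of 20901 genes, and the median was 0.72 over the members and 0.74 over all genes. The lymph node list, whose LFC levels are given above, was between −4.55 and 1.97 on the early HFC arrays and between −3.37 and 2.72 on the late arrays. Its part in the interaction was not tested.

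Other genes of the interferon pathway were listed by role, 54 symbols of which 49 are on the array and 44 were well above background on at least 18 of 36 arrays. With limma 0 of them passed in any of the 7 comparisons. At an unadjusted p under 0.05 there were 1, 1, 2 and 4 of 46 tested in HFC against LFC, HF5, HF20 and HF75 against HFC, and 2, 1 and 4 of 44 between the periods of LFC, of HFC and in the interaction. In the same order 5.63, 2.77, 5.39, 10.7, 8.13, 7.61 and 5.49% of all genes had such a p. The medians over the 49 were 0.04, 0.16, −0.16, 0.18, −0.52, 0.11 and 0.53 in the same order. Of 9 ligands on the array, 4 were well above background on at least 18 arrays. These were Ifng on 35 arrays, the type I interferon genes Ifnb1 on 27 and Ifna2 on 26, and Ifna1 on 19. Ifnb1, singled out after its values were seen, ran from its array's lowest measurable level on LFC week 12 to 2.26 on LFC week 15, with a median of −1.27. It differed by −3.31 between HF20 and HFC, where 4 of 9 ligands were above 0 and 5 below. In the interaction Ifnb1 was at 3.72 (3.00 without the array labelled LFC week 18), again with 4 of 9 ligands above 0. Ifna2, also singled out in this way, was highest on HF75 week 12 at 3.13 and differed by 4.26 between HF75 and HFC (adjusted p = 0.215).

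The 5 interferon receptor genes had medians between −0.30 in late against early LFC and 0.41 in the interaction. The chemokines Cxcl9, Cxcl10 and Cxcl11, which draw T cells and natural killer cells, had log2 differences of −2.03, −2.78 and −2.28 between late and early LFC and an interaction median of 2.64. Without the array labelled LFC week 18, on which Cxcl9 and Cxcl11 were lowest, these were −1.34, −2.09, −1.63 and 1.995. In HF20 against HFC, Cxcl9 was at −0.19, Cxcl10 at −2.20 and Cxcl11 at −1.55 (adjusted p of 0.952, 0.748 and 0.749). Of the genes of antigen presentation outside the list, 10 of 10 were below 0 between late and early LFC and 10 of 10 above 0 in the interaction, as Psmb8, Psmb9 and Tap1 were, and without the array labelled LFC week 18 they were 9 of 10 and 10 of 10. The inhibitor Socs3 differed by −2.05 between HF20 and HFC (adjusted p = 0.748).

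Across the 36 arrays, the member median was compared with lists of cell type markers, and r was highest for the natural killer and cytotoxic and the lymph node lists. For the natural killer and cytotoxic list, which ran from −6.04 on LFC week 12 to −0.38 on HFC week 3, r was 0.73 and rho 0.71, and r was 0.67 without the 2 farthest arrays. For the lymph node list, which ran from −5.27 to 2.93, they were 0.67, 0.68 and 0.61. The plasmacytoid dendritic cell list (4 genes, Tcf4 brightest) had r = 0.55, rho = 0.53 and r = 0.53, the T cell list (7 of 8, Cd3d) 0.53, 0.53 and 0.61, and the B cell list (5 genes, Cd79b) 0.48, 0.50 and 0.47. For the endothelial list (5 genes, Vwf) they were 0.45, 0.60 and 0.58. For the median of the GTPases r, rho and r without the 2 farthest arrays were 0.69, 0.68 and 0.57 with the endothelial list. With the fibroblast list they were 0.49, 0.25 and 0.14, so across the 36 arrays this r rests on those 2. With each value taken relative to the mean of its scan day (31 arrays), they were 0.58, 0.47 and 0.42 for the fibroblast list. Across the 36 arrays they were 0.30, 0.39 and 0.19 with the natural killer and cytotoxic list and 0.29, 0.34 and 0.20 with the lymph node list. No difference between these correlations was tested. The macrophage list (6 of 7, Emr1), from −1.64 on HFC day 1 to 1.998 on HFC week 6, had 0.16, 0.02 and −0.13. The adipocyte list, from −6.18 on LFC week 18 to 5.98 on LFC day 6, had −0.19, −0.16 and −0.39.

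The remaining lists had a lower r with the member median than the endothelial list. For neutrophil markers (5 genes, S100a9) r, rho and r without the 2 farthest arrays were 0.30, 0.35 and 0.46, and for fibroblast markers (5 genes, Dcn) 0.28, 0.39 and 0.38. Epithelial markers (4 genes, Cdh1) had 0.28, 0.39 and 0.29, skeletal muscle markers (5 genes, Acta1) 0.17, 0.10 and 0.05, and erythroid markers (4 genes, Hbb-b1) 0.03, 0.10 and 0.11. With each value taken relative to the mean of its scan day (31 arrays of the 10 days that held more than 1), r with the member median was 0.63 for the natural killer and cytotoxic, 0.575 for the endothelial and 0.48 for the lymph node list. It was 0.39 for fibroblast, 0.37 for epithelial, 0.28 for T cell, 0.26 for plasmacytoid dendritic cell, 0.20 for B cell, 0.17 for macrophage, 0.13 for skeletal muscle, 0.10 for neutrophil, 0.03 for erythroid and −0.28 for adipocyte markers. These 13 lists are descriptions over arrays that share diets, and no part of the member levels was assigned to a cell type.

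**Figure D3:**
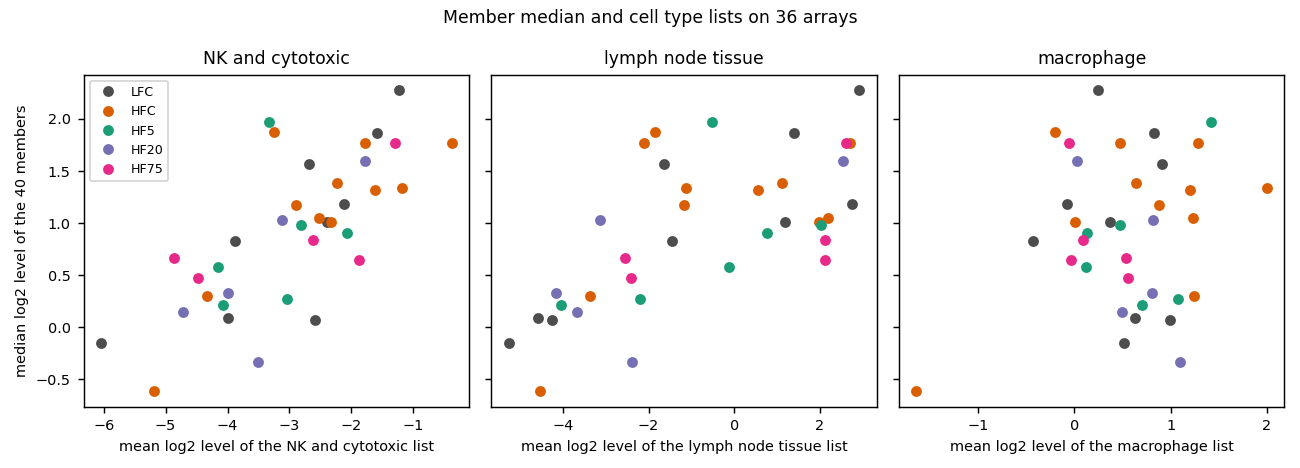
Median log2 level of the 40 members (vertical) against the mean log2 level of the natural killer and cytotoxic, lymph node and macrophage lists (horizontal) on 36 arrays, 1 point per array, coloured by diet. Pearson r is 0.73, 0.67 and 0.16 in that order.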

How the data were processed

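The deposited files hold spot intensities of single-colour Agilent arrays, which per the file headers were made by Feature Extraction 10.5.1.1 (the labels name 9.1) with background subtraction and no scaling between arrays. A further deposited table holds the authors' own log2 fold changes of each array relative to LFC, and only its gene symbols were used here.

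From the processed intensities, log2 levels minus the 75th percentile of the array were computed with NumPy 2.4.6, SciPy 1.17.1 and pandas 2.3.3 under Python 3.11.15. Outlier spots were dropped, and dimmer values were set to the lowest level well above background of their array, so they are bounds. Levels and differences given for a second or other probe alone were not raised in this way. A gene was read from its brightest probe of 40628 and tested where 50% or more of the arrays of any diet had it well above background. The 4 diet comparisons were fitted with limma 3.58.1 (R 4.3.3) on 36 arrays with the 11 time labels as a block, and the periods on 20 arrays. P-values were adjusted over all genes by the Benjamini-Hochberg method with a threshold of 0.05. The 38 arrays with a diet came from 30 slides scanned on 15 days, with a median spot intensity of 4.86 times background, and their number limits the precision.

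Since no member passed, the 3 largest differences in each direction were named for each comparison. The members and all gene lists were chosen with earlier results of these data known. Cell type lists were macrophage, T cell, B cell, natural killer and cytotoxic, plasmacytoid dendritic cell, lymph node, adipocyte, fibroblast, endothelial, neutrophil, skeletal muscle, epithelial and erythroid. The levels of 1 pathway gene are not reported here. The pairing by time label comes from the labels. The scripts were tested on simulated data, and figures were drawn with matplotlib 3.10.9.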

Additional observations from a re-analysis of the deposited data

Results flagged for a closer look

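Of 84 groups of arrays tested (21 measures in 4 diets, HFC having more arrays than the test allows), 12 held an array whose gap to its nearest neighbour was large for the range of its group. Chance alone sets apart about 1 in 20 groups. Among the members, the 4 cytosolic sensors had a median of −2.58 on LFC day 1 against −0.87 to 0.84 on the other LFC arrays, with Ifih1 and Dhx58 lowest there. Dhx58 was not well above background on it, Ddx58 was at −0.25, and Zbp1 was instead highest there of all 36 arrays, at 3.56. The second probe of Ifih1 was at −3.20 there, against −4.62 to −2.70 on the other LFC arrays. The median of all members was 1.77 on HF75 week 3 against 0.47 to 0.83 on the other HF75 arrays.

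The other 10 concern cell type lists, as mean levels. The array labelled LFC week 18 had fibroblast markers at −4.91 (others 4.52 to 5.83), endothelial markers at −3.21 (1.16 to 3.39) and neutrophil markers at 5.63 (−2.69 to 1.07). HF20 week 3 had B cell markers at 1.015 (−4.21 to −3.13), lymph node markers at 2.54 (−4.15 to −2.39) and endothelial markers at 2.89 (1.25 to 1.51). Adipocyte markers were at 5.10 on HF5 week 9 (−1.34 to 0.59), and endothelial markers at −1.81 on HF5 week 3 (1.65 to 3.11). Epithelial markers were at 1.30 on HF20 week 6 (−4.96 to −3.40), and skeletal muscle markers at −3.01 on HF75 week 6 (1.52 to 3.21). Their part in the levels of the members was not tested.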

How the results depend on the processing

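The counts of members passing limma's adjusted p were recomputed under 12 alternatives and under 4 more that were chosen after seeing the data, and 92 of 95 were 0. With only the 2 diets in the fit, 1 member passed in HF75 against HFC (Mx1, log2 difference 2.98, adjusted p = 0.0127, with a range over the alternatives of 0.0127 to 0.919). With normexp, 6 members passed between late and early LFC and 2 in the interaction, where all genes moved as far as the members. The cause was not tested. The median over the members kept its sign under 13 of 14 alternatives for HFC against LFC and for HF5, 14 of 14 for HF20 and 6 of 14 for HF75. Between the periods it did so under 13 of 13 in LFC, 10 of 13 in HFC and 13 of 13 in the interaction, where it ran from 0.63 to 1.68.

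Leaving out each array in turn gave 0 to 0 members in all 7 comparisons (204 counts), and medians of −0.02 to 0.44 for HFC against LFC, −0.21 to 0.07 for HF5, −0.60 to −0.14 for HF20 and −0.12 to 0.11 for HF75. Between the periods they were −1.36 to −0.86 in LFC, −0.31 to 0.29 in HFC and 0.77 to 1.48 in the interaction. Without the time label as a replicate block the medians were 0.15, −0.30, −0.43 and −0.18 in the same order of diets, with 0 members passing, and 36 of 22559 genes passed in HF75 against HFC. With it as a random replicate block they were −0.98, 0.07 and 1.19 between the periods, again with 0. The block changed no other call. Of the 42 differences of named members, 30 moved by over 1.5 times or changed sign when 1 array was left out, and 7 changed sign. A spot intensity of 2.09 to 10.8 times background on the 36 arrays and 1 array per diet and time label limit what can be seen.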

Other observations

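The 2 arrays of week 18 whose labels name different diets had member medians of −0.23 and 0.49. On the first, 21710 spots were marked as outliers, and Isg15 was at −0.37 and Bst2 at 1.49. On the second, Isg15 was at 0.70, Bst2 at 3.12 and Mx1 at −2.82. The left-out LFC arrays of day 14 and week 3 had member medians of 0.14 and 0.56. On that of week 3 only 16 members were well above background, so its median cannot be compared with those of other arrays.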
